A study of Mus musculus with 35 samples.

Results

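The CatSper genes encode the sperm calcium channel. The 8 gene rows described here were chosen by symbol: Catsper1, Catsper2, Catsper3 and Catsper4, which encode the pore-forming subunits, and Catsperb, Catsperd, Catsperg1 and Catsperg2, which encode auxiliary subunits with large extracellular parts (the CatSper beta, delta and gamma chains). They are 8 of the 24411 gene rows in the deposited count tables, and all 8 passed the filter on low counts in every comparison.

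The libraries came from adult Smg6-cKO mice, Smg6(fx/fx);Ngn3Cre+, in which Cre from the Ngn3 promoter removes a floxed part of Smg6 in early postnatal germ cells, and from control littermates, Smg6(fx/fx);Ngn3Cre- or Smg6(fx/wt);Ngn3Cre-, all on a mixed C57Bl/6J and SV129 background. Every control therefore carried at least 1 floxed allele. SMG6 is an endonuclease of nonsense-mediated mRNA decay (NMD), the pathway that degrades transcripts with a premature or unusually placed stop codon. Pachytene spermatocytes (Spc) and round spermatids (RS) were enriched by sedimentation, with 3 cKO and 3 CTRL libraries of polyadenylated RNA each. Chromatoid bodies (CB), the RNA-rich granules of round spermatids, were isolated with an antibody to DDX4 from pooled mice, with 3 cKO and 4 CTRL libraries of total RNA. Targeted mice came from 2 embryonic stem cell clones, and the labels do not tie libraries to a clone or to single animals, so p-values measure the spread between these libraries. The CB libraries are named below as in the table header, because their header numbers match no sample title.

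CatSper is a calcium channel of the sperm tail that opens on alkalinisation of the cell, and it is needed for the hyperactivated swimming of sperm and for male fertility. Its 4 pore subunits are all required, and its auxiliary subunits assemble with them in the flagellar membrane. Among the pore genes, Catsper1, Catsper3 and Catsper4 are known as genes of the haploid phase. Some of the auxiliary genes are already transcribed in meiosis. In CTRL Spc here, Catsper2 had the highest level per kilobase of the members (below).

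Totals ran from 38129415 to 49940226 counts per library in Spc and RS and from 3965541 to 16699210 in CB. Smg6 gene counts do not check the deletion, which removes a single exon: they were 181 to 189 CPM (the count of a gene relative to the library total, scaled by the trimmed mean of M-values, TMM) in cKO and 115 to 184 CPM in CTRL Spc. Of 10 spermatocyte marker genes none was at 0 in any library. A list of 10 late spermatid genes, with Prm1 and Prm2 among them, held 0.406% to 0.790% of counts in CTRL Spc and 0.0468% to 0.147% in cKO Spc, and 2.25% to 2.79% in CTRL RS and 0.218% to 0.233% in cKO RS. All 10 were lower in cKO in each of Spc, RS and CB. In bulk samples, fewer cells of a type and less RNA per cell cannot be told apart.

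The 8 genes lie on 7 chromosomes of GRCm38. Catsper1 lies on chromosome 19 (chr19:5335741-5344280, plus strand), Catsper2 on chromosome 2 (chr2:121392631-121413792, minus), Catsper3 on chromosome 13 (chr13:55784568-55808998, plus) and Catsper4 on chromosome 4 (chr4:134211970-134227383, minus). Catsperb lies on chromosome 12 (chr12:101404653-101626009, plus) and Catsperd on chromosome 17 (chr17:56628143-56664456, plus). Catsperg1 (chr7:29181321-29214035, minus) and Catsperg2 (chr7:29697219-29727032, minus) lie apart on chromosome 7. Of the 3596 windows of 75 bases in the longest coding transcript of Catsperg1, 1053 (29.3%) occur unchanged in Catsperg2, and no other pair of the 8 shares such a window. A read of that length from these stretches matches both genes, and whether its mate or a longer read placed it was not examined, so their separate values are uncertain. The start of Catsper2 overlaps Pdia3 on the opposite strand, and counting used strand.

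Promoters of 2 pore genes and 2 auxiliary genes, which moved in opposite directions in cKO RS (below), are shown for comparison, as 250 bases before to 50 bases after the start in RefSeq for GRCm38.p6, which had entries for 6 of the 8 genes, not Catsper1 and Catsperg2. Each is printed 5′ to 3′ on the strand of its gene. Capitals mark matches to AACNGNC or its complement, the core of the motif of the meiotic factor A-MYB, and to the X-box bound by RFX factors of ciliary genes, searched as GTTNCC and its complement 2 bases apart.
Catsper3 (chr13:55784329-55784628, plus): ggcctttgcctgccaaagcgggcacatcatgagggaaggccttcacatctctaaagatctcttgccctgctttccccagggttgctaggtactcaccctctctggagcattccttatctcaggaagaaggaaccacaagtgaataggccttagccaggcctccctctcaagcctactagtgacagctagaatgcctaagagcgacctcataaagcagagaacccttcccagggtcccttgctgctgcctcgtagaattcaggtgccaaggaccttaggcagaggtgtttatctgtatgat
Catsper4 (chr4:134227334-134227633, minus): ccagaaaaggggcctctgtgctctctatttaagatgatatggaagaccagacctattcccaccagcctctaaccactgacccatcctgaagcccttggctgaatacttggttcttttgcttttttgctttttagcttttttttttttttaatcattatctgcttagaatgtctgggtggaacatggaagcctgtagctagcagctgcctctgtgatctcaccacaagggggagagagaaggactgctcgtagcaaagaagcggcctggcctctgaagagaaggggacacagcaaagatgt
Catsperb (chr12:101404423-101404722, plus): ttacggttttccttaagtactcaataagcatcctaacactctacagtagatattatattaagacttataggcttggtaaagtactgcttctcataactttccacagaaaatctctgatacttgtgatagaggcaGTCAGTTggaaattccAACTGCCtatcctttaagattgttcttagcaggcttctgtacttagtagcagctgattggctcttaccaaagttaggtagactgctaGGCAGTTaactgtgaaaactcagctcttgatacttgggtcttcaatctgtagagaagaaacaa
Catsperg1 (chr7:29213984-29214283, minus): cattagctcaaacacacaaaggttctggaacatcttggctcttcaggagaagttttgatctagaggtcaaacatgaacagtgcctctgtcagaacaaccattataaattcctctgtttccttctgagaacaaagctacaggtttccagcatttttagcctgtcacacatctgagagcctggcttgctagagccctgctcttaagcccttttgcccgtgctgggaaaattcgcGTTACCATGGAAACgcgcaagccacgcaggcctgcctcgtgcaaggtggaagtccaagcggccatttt
Catsperg1, second start (chr7:29210876-29211175, minus): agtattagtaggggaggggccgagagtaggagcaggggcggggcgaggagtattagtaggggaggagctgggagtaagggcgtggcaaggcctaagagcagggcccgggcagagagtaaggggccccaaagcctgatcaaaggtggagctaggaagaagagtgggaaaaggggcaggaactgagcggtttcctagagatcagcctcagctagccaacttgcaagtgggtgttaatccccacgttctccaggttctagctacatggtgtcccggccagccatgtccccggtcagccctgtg

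The Catsperb promoter held 3 matches to AACNGNC within 116 bases of its start, the nearest 13 bases before it. This motif occurred in 32.8% of the 32851 promoters of the table on either strand and in 4 of the 8 entries of CatSper genes, those of Catsper2, Catsperb and both starts of Catsperd. The X-box occurred in 0.451% of all promoters and in 1 CatSper entry, that of Catsperg1, 18 bases before the start. Catsper3 and Catsper4 held no match to these motifs, nor to TGACG (20.8% of all promoters), TATAAA (13.6%), CCAAT (37.4%) or GTTNCC alone (45.3%), which the X-box contains. The promoter of Catsper2, the other pore gene with an entry, held 1 match to TGACG, 2 to CCAAT and 1 to GTTNCC besides its A-MYB match. Of the 8 CatSper entries, TGACG occurred in 2 (Catsper2 and Catsperd), TATAAA in 1 (Catsperg1) and CCAAT in 2 (Catsper2 and Catsperb). GTTNCC occurred in 4 entries, of Catsper2, Catsperg1 and Catsperd. A match is a run of letters and no measure of binding.

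In CTRL cells the pore genes were higher in RS than in Spc and the auxiliary genes were lower, and all 8 differences passed the test. This comparison asks how the genes change from meiosis to the haploid phase, and its levels are CPM from a single fit of the 12 Spc and RS libraries (edgeR's quasi-likelihood test, Benjamini-Hochberg adjusted over all genes tested, called at an adjusted p of at most 0.05). Of all 18171 genes tested, 37.0% were called higher and 35.7% lower in CTRL RS.

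Catsper4, a pore subunit, had 79.3, 49.1 and 55.3 CPM in CTRL Spc and 253, 243 and 227 CPM in CTRL RS. Every RS library was above every Spc library. Its log2 difference was 1.98 ± 0.24 (SE), adjusted p = 1.96e-05. Catsper1 rose from 79.9 ± 21.6 to 297 ± 11.2 CPM (mean ± SD, n = 3), a log2 difference of 1.89, and Catsper3 from 42.6 ± 10.8 to 162 ± 18.1 CPM, a log2 difference of 1.92. Catsper2, the fourth pore gene, rose less, from 363 ± 2.00 to 488 ± 24.9 CPM, a log2 difference of 0.43 (adjusted p = 1.36e-04). With library size in place of TMM the median of all genes went from 0.01 to -0.53 in this comparison, and Catsper2 was at -0.11 and no longer called, while the other 3 pore genes kept their direction and call.

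The auxiliary genes fell by 0.31 to 0.66 on the log2 scale. Catsperg2 had 339, 413 and 367 CPM in CTRL Spc and 266, 225 and 218 CPM in CTRL RS, with no overlap. It fell by 0.66 on the log2 scale (SE 0.11, adjusted p = 2.72e-04). Catsperd fell by 0.53, Catsperg1 fell by 0.36 and Catsperb fell by 0.31, with adjusted p from 9.12e-05 to 0.00913.

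In cKO cells 3 pore genes rose in the same comparison, which shares no library with the CTRL comparison. Catsper1 rose from 55.2 ± 19.4 to 120 ± 18.9 CPM (log2 difference 1.12), Catsper3 from 18.0 ± 7.96 to 37.7 ± 10.4 CPM (1.07) and Catsper4 from 86.6 ± 28.3 to 178 ± 34.9 CPM (1.04). Catsper2 differed by 0.13 (adjusted p = 0.116). The 4 auxiliary genes fell by 0.38 (Catsperb) to 0.62 (Catsperg2) on the log2 scale. Among all genes 23.9% were called higher and 25.7% lower in cKO RS. The call for Catsper3 was lost without cKO RS replicate 2 (log2 difference 0.83, adjusted p = 0.0520) and that for Catsperg1 without cKO RS replicate 3 (-0.35, adjusted p = 0.0501).

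Whether the genotypes differed in this step was tested as an interaction in the same fit. Catsper4 (-0.94 ± 0.33, adjusted p = 0.0384) and Catsper2 (-0.29 ± 0.09, adjusted p = 0.0280) were called lower, against 21.1% of all genes called lower and 20.5% higher. Catsper1 (-0.78, adjusted p = 0.0817) and Catsper3 (-0.86, adjusted p = 0.120) did not pass, and the auxiliary genes lay between -0.07 and 0.09. Of the 12 fits that left out 1 library, Catsper4 was called in 3 (without cKO Spc replicate 3, CTRL Spc replicate 1 or cKO RS replicate 2) and lost in the others, with adjusted p up to 0.115 without cKO RS replicate 3. Catsper2 was called in 5 (without cKO Spc replicate 1, CTRL Spc replicate 1, cKO RS replicate 2, CTRL RS replicate 2 or CTRL RS replicate 3), with adjusted p up to 0.135 in the others. Of the same 12 fits, Catsper1 was called in 2 and Catsper3 in 1. With library size in place of TMM the median of all genes was 0.57 and not -0.07, Catsper2 reversed to 0.34 (adjusted p = 0.0117), the 4 auxiliary genes were called higher and Catsper4 was at -0.30 and not called. Relative to that median Catsper2 was at -0.23 both with TMM and with library size. Marker lists moved with these comparisons too. In CTRL RS against CTRL Spc, 10 of 10 late spermatid and 10 of 10 spermatid genes were called higher, and 6 of 6 Leydig genes (median log2 difference -4.82) and 6 of 6 Sertoli genes (-3.18) lower. In cKO RS against cKO Spc, 6 of 10 late spermatid, 7 of 10 spermatid and 12 of 12 macrophage genes (2.24) were called higher and 5 of 6 Leydig genes lower. In the interaction, 6 of 10 late spermatid and 9 of 10 spermatid genes were called lower, and 6 of 6 Sertoli genes (3.65) and 6 of 12 macrophage genes higher. Of 10 spermatocyte genes, 6 were called lower and 2 higher in CTRL RS against CTRL Spc. In cKO RS against cKO Spc 7 were lower and 2 higher, and in the interaction 2 were lower and 3 higher. Of 12 macrophage genes, 5 were called higher and 2 lower in CTRL RS against CTRL Spc. The part of these lists in the results was not tested.

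**Figure D1:**
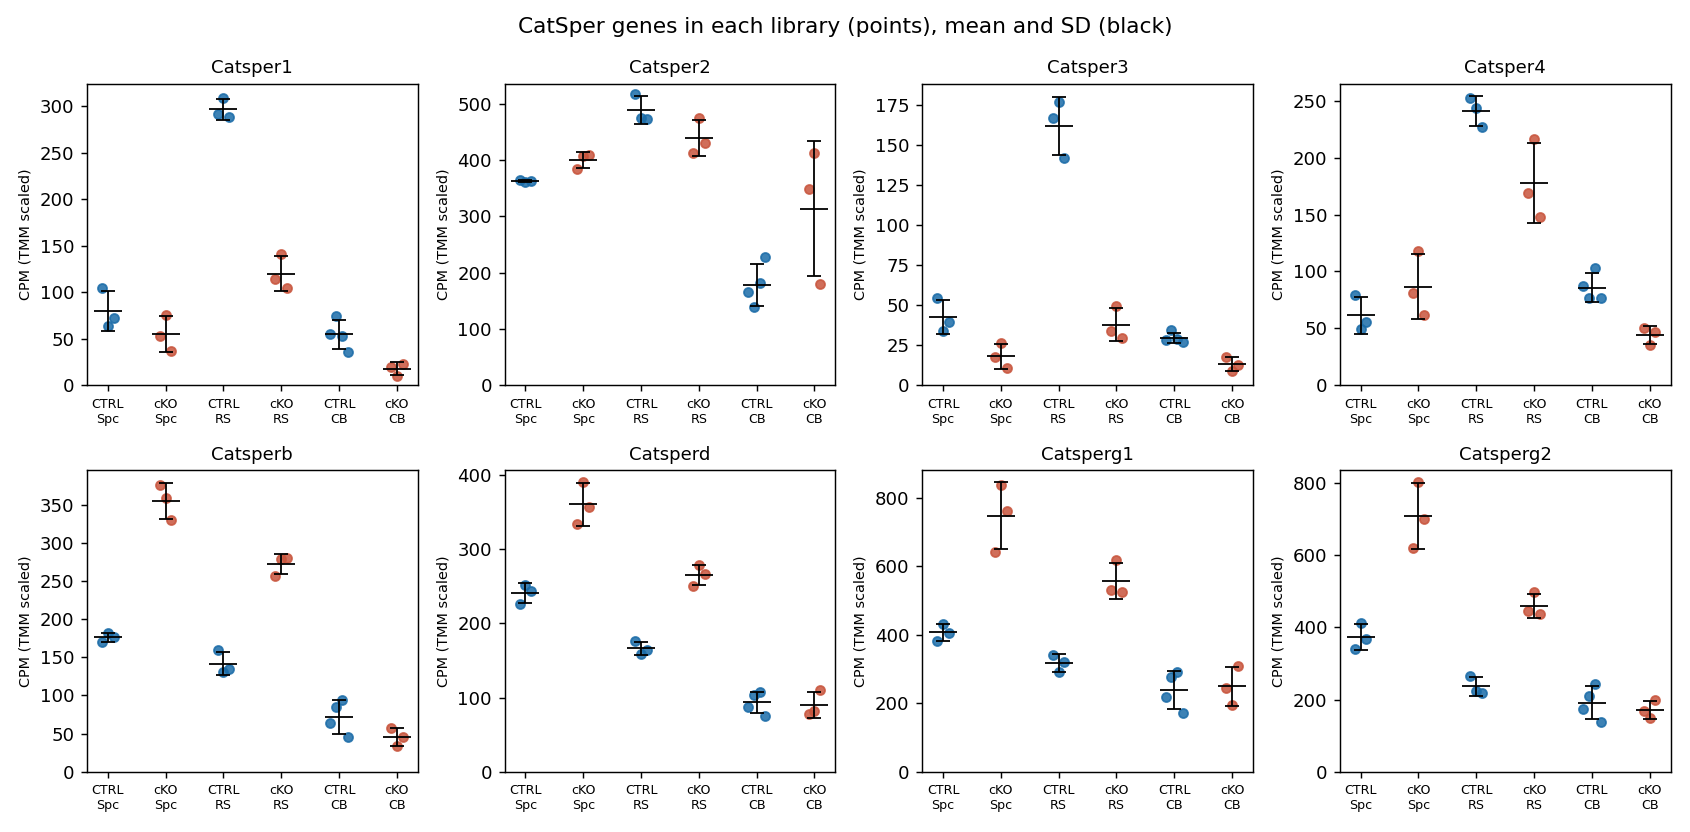
TMM-scaled CPM of the 8 CatSper genes in each library (points, blue for CTRL and red for cKO) with the mean and SD of each group in black. Each panel has its own axis from 0, Spc and RS share 1 scaling and CB has its own. The pore genes Catsper1, Catsper3 and Catsper4 are highest in CTRL RS, and the auxiliary genes in the lower row are highest in cKO Spc.

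Levels can be compared between genes per length only, here as CPM per kilobase of the longest coding transcript. In CTRL Spc, Catsper2 was highest at 161 ± 0.890 CPM per kilobase, followed by Catsperg1 at 111 ± 6.54, and Catsperg2 (94.3 ± 9.38) and Catsperd (94.1 ± 5.20), which overlapped. Catsperb at 47.3 ± 1.47 overlapped with Catsper1 at 36.5 ± 9.87, and Catsper1, Catsper4 (35.5 ± 9.26) and Catsper3 (32.0 ± 8.09) overlapped in turn. In CTRL RS the 4 pore genes were the 4 highest, from Catsper2 at 217 ± 11.1 to Catsper3 at 122 ± 13.6, above Catsperg1 at 86.5 ± 6.85, Catsperd at 65.1 ± 3.50, Catsperg2 at 59.7 ± 6.60 and Catsperb at 38.1 ± 4.21. In cKO RS the order below Catsper2 (196 ± 14.0) was Catsperg1 (152 ± 14.3), Catsperg2 (116 ± 8.24), Catsperd (104 ± 5.47), Catsper4 (103 ± 20.2), Catsperb (73.1 ± 3.52), Catsper1 (54.8 ± 8.62) and Catsper3 (28.3 ± 7.82), with an overlap between neighbours only for Catsperd and Catsper4. Catsper3 was thus the lowest of the 8 in cKO RS, and Catsperb in CTRL RS.

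In cKO RS the TMM-scaled levels of the pore genes Catsper1, Catsper3 and Catsper4 were lower and those of all 4 auxiliary genes higher, but the direction of Catsper4 turned with library size in place of TMM. Catsper3 was at 0.235-fold of its CTRL level, Catsper1 at 0.407-fold and Catsper4 at 0.743-fold, while the auxiliary genes were 1.61-fold to 1.96-fold higher. Here and below, values are CPM from the fit of that cell type alone. Of all 17492 genes tested in RS, 32.8% were called lower and 40.2% higher, beside 3 and 4 of the 8 CatSper genes, so these counts are not particular to them. These changes share their CTRL RS libraries with the rise from CTRL Spc to CTRL RS given above.

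Catsper3 had 154, 163 and 131 CPM in the CTRL RS libraries and 31.7, 46.0 and 27.6 CPM in the cKO RS libraries. The cKO libraries were all far below the CTRL libraries, and Catsper3 was the 1 member past a log2 change of 1.5 there (-2.09 ± 0.19, adjusted p = 2.79e-05). Catsper1 had 270, 286 and 267 CPM in CTRL and 107, 131 and 97.4 CPM in cKO. It fell by 1.30 on the log2 scale (SE 0.11, adjusted p = 1.98e-05), again with no overlap.

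Catsper4 had 234, 225 and 210 CPM in CTRL RS and 157, 201 and 138 CPM in cKO RS. The highest cKO library came close to the lowest CTRL library, and the change of -0.43 ± 0.13 (adjusted p = 0.0165) was the weakest of those called. It was lost without cKO RS replicate 1 (adjusted p = 0.0922), cKO RS replicate 3 (0.0731) or CTRL RS replicate 1 (0.0503), and with all 12 libraries in 1 fit (0.107). Catsper2, with 478, 438 and 438 CPM in CTRL and 385, 441 and 402 CPM in cKO, overlapped between groups and was not called (-0.14 ± 0.07, adjusted p = 0.112). Of 8 alternatives that left out no RS library, 2 called Catsper2, and its change ran from -0.21 to 0.41 over the 8.

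Catsperb had 148, 120 and 125 CPM in CTRL RS and 239, 260 and 261 CPM in cKO RS. Each cKO library had more than each CTRL library (log2 change 0.95 ± 0.09, adjusted p = 3.69e-05). Catsperg2 had 246, 207 and 202 CPM in CTRL and 414, 462 and 408 CPM in cKO (0.97 ± 0.09, adjusted p = 4.07e-05). Catsperg1, with 315, 269 and 296 CPM in CTRL and 495, 575 and 489 CPM in cKO, changed by 0.82 ± 0.09 (adjusted p = 8.00e-05). Catsperd went from 154 ± 8.33 to 247 ± 12.9 CPM (n = 3 each), a log2 change of 0.68 ± 0.07 (adjusted p = 6.10e-05). All 4 auxiliary genes were thus higher in cKO RS, with no overlap between groups in any of them. Here and in Spc and CB below, how many of all genes lacked such overlap was not counted. Catsperg1 and Catsperg2 share sequence (above), so their values are not fully separate.

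The RS values depend on scaling. With library size in place of TMM the median change of all genes moved from 0.16 to 0.72 and 58.2% of genes were called higher against 18.6% lower. Catsper1 (-0.74) and Catsper3 (-1.54) were still called lower, Catsperb (1.51), Catsperd (1.24), Catsperg1 (1.38) and Catsperg2 (1.53) higher, Catsper4 turned to 0.13 and was not called, and Catsper2 turned to 0.41 and was called higher (adjusted p = 4.46e-04). Relative to the median of all genes, Catsper2 was at -0.31 and Catsper4 at -0.59 with either scaling.

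**Figure D2:**
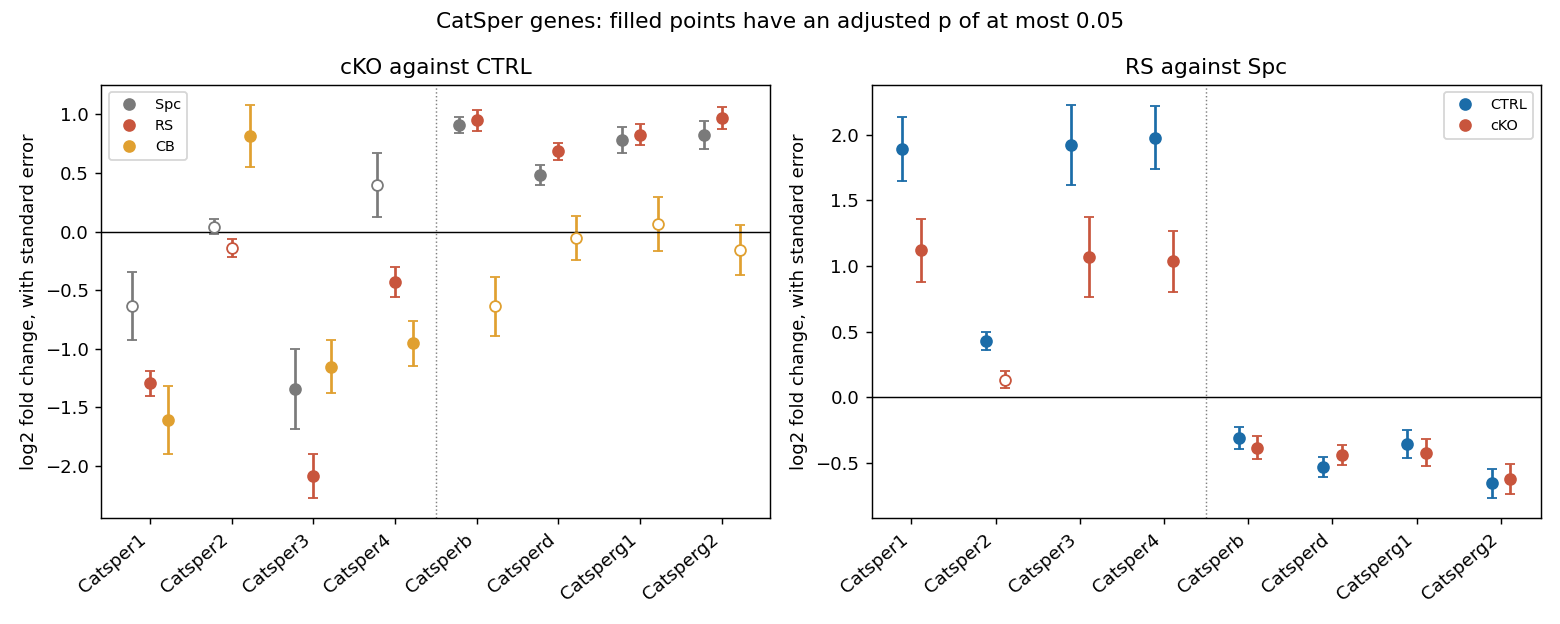
Log2 fold changes of the 8 CatSper genes with their standard errors, for cKO against CTRL in Spc, RS and CB (left) and for RS against Spc in CTRL and cKO (right). Filled points have an adjusted p of at most 0.05, and a dotted line parts the pore genes from the auxiliary genes. In Spc and RS the 4 auxiliary genes lie between 0.48 and 0.97, and in CB none of them is filled.

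Counts within a library do not depend on scaling. In CTRL RS the raw counts of Catsper3 (4656 to 6034) and Catsperb (4350 to 5773) covered a similar range, whereas in cKO RS there were 1549 to 2351 counts of Catsper3 and 12644 to 14626 of Catsperb. The 4 pore genes together made up 58.0% ± 1.75 (SD, n = 3) of the counts of the 8 genes in CTRL RS and 33.2% ± 1.20 in cKO RS. In Spc the share was 31.4% ± 3.35 in CTRL and 20.5% ± 0.985 in cKO. The groups did not overlap in either cell type. The pore counts themselves did overlap, with 37183 to 44448 in CTRL RS and 35982 to 41887 in cKO RS, whereas the auxiliary counts did not, with 26832 to 34114 in CTRL RS and 73008 to 79544 in cKO RS. In Spc the pore counts were 27069 to 28402 in CTRL and 20486 to 30088 in cKO, and the auxiliary counts 50677 to 71470 and 75410 to 114637. These shares sum the members, were chosen after the values were seen and are given with no test.

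**Figure D3:**
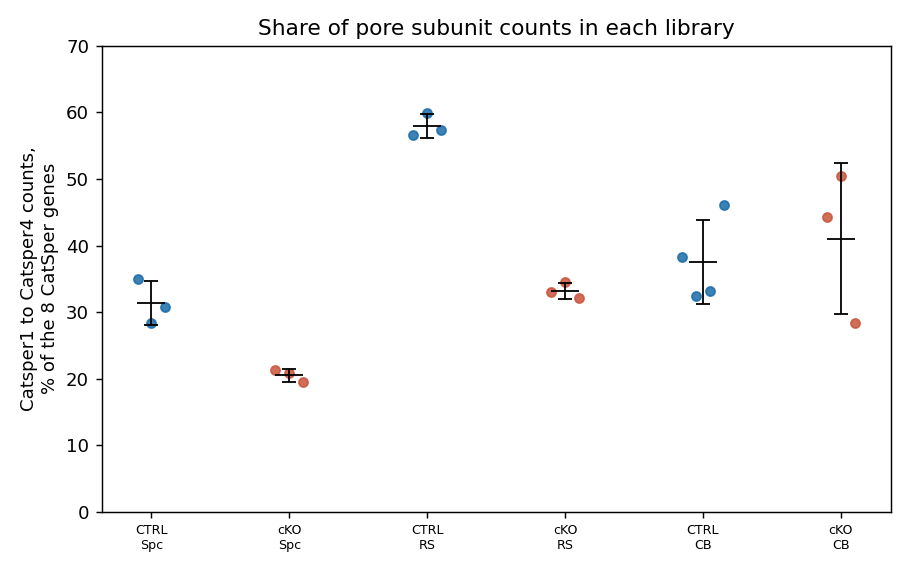
Counts of Catsper1, Catsper2, Catsper3 and Catsper4 as a percentage of the counts of the 8 CatSper genes in each library (points), with the mean and SD of each group in black. The share is 56.6% to 59.9% in CTRL RS and 32.1% to 34.5% in cKO RS, and the CB groups overlap.

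In Spc the auxiliary genes were already higher in cKO, and of the pore genes Catsper3 alone was called. Of all 17321 genes tested, 14.2% were called higher and 14.0% lower, beside 4 and 1 of the 8 CatSper genes. Catsperb had 193, 201 and 195 CPM in CTRL Spc and 383, 378 and 346 CPM in cKO Spc, with CTRL libraries close to each other and far from the cKO libraries (log2 change 0.91 ± 0.07, adjusted p = 5.17e-04). Catsperg2 had 384, 457 and 408 CPM in CTRL and 631, 845 and 734 CPM in cKO (0.82 ± 0.12, adjusted p = 0.00516). Catsperg1 went from 454 ± 21.9 to 779 ± 116 CPM (0.78 ± 0.11, adjusted p = 0.00514) and Catsperd from 268 ± 11.7 to 375 ± 36.0 CPM (0.48 ± 0.09, adjusted p = 0.00959). None of the 4 overlapped between groups.

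Catsper3 had 61.7, 37.3 and 43.9 CPM in CTRL Spc and 17.6, 27.7 and 10.9 CPM in cKO Spc. The groups did not overlap, but libraries within a group spread widely, and the change of -1.35 ± 0.34 (adjusted p = 0.0272) was lost without cKO Spc replicate 1 (adjusted p = 0.0953), CTRL Spc replicate 1 (0.0590) or CTRL Spc replicate 3 (0.0645). Catsper1 was at -0.63 ± 0.29 (adjusted p = 0.138), called without cKO Spc replicate 2 (-0.94, adjusted p = 0.0390). Catsper2 (0.04, adjusted p = 0.666) and Catsper4 (0.40, adjusted p = 0.299) overlapped between groups. The late spermatid genes, whose summed level is given above, fell in the same Spc libraries, and their part in the Catsper3 difference was not tested.

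Other cell types also moved with genotype. In RS, 11 of 12 macrophage genes were called higher in cKO and 1, Aif1, lower. Aif1 held 91.5% to 93.3% of the list's counts in CTRL RS, so the list summed to 0.0378% to 0.0525% of all counts in cKO and 0.0367% to 0.0434% in CTRL with it, but to 0.0265% to 0.0445% and 0.00246% to 0.00366% without it. The 5 Leydig and 5 Sertoli genes tested were all higher. In Spc 9 of 12 macrophage genes were called higher and 2, Aif1 and Mrc1, lower. Their sum was 0.0109% to 0.0120% in cKO and 0.0130% to 0.0200% in CTRL with Aif1, and 0.00551% to 0.00864% and 0.00386% to 0.00478% without it. Also in Spc, 2 of 6 Leydig genes were higher and the 6 Sertoli genes lower. Summed levels of the Leydig and Sertoli lists were at most 0.114% of counts in any Spc or RS library, with no marker at 0 in any of them. Of the 10 spermatocyte genes, 6 were called higher and 2 lower in cKO RS. The late spermatid list fell in the same RS libraries, as did 10 of 10 genes of a second spermatid list. The part of these cells in the CatSper differences was not tested.

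In CB the pore genes Catsper1, Catsper3 and Catsper4 were lower in cKO and no auxiliary gene was called. Catsper1 had 55.2, 74.3, 52.8 and 35.9 CPM in the CTRL libraries MCTRL1, MCTRL5, MVHCTRL2 and MVHCTRL3 and 19.8, 9.58 and 23.0 CPM in the cKO libraries MKO2, MKO3 and MKO4. The groups did not overlap (log2 change -1.61 ± 0.29, adjusted p = 0.00127). In the same order, Catsper3 had 28.2, 34.1, 28.8 and 27.1 CPM in CTRL and 17.7, 8.96 and 12.6 CPM in cKO (-1.15 ± 0.22, adjusted p = 0.00197), and these cKO values rest on 29 to 103 counts. Catsper4 had 87.1, 76.4, 103 and 76.5 CPM in CTRL and 50.4, 34.9 and 46.7 CPM in cKO (-0.95 ± 0.19, adjusted p = 0.00213). None of the 3 overlapped between groups, and their calls held in every fit that left out 1 CB library. Of all 14051 genes tested in CB, 18.9% were called lower and 16.6% higher. The late spermatid list held 0.171% to 0.430% of counts in CTRL CB and 0.0282% to 0.0398% in cKO CB, 9 of 10 genes of the second spermatid list were also called lower, and 5 of 5 Leydig genes tested were higher in cKO (0.00296% to 0.0289%, against 0.00103% to 0.00351%). Of 6 macrophage genes tested in CB, 3 were called higher (Csf1r, Mrc1 and C1qb, by 1.99 to 2.66) and Aif1 lower, and the list without Aif1 summed to 0.00113% to 0.00630% in cKO and 0.000951% to 0.00139% in CTRL. Of 3 Sertoli genes tested, 1 was called higher (Amhr2, 1.02, adjusted p = 0.00953), and the list of 6 summed to 0.00106% to 0.00159% in cKO and 0.000635% to 0.000874% in CTRL, with Fshr at 0 in 3 libraries of each group. Their part in these differences was not tested.

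Catsper2 was the 1 CatSper gene called higher in CB, with 166, 138, 181 and 227 CPM in CTRL and 349, 413 and 180 CPM in cKO (0.82 ± 0.27, adjusted p = 0.0296). The cKO library MKO4 lay within the CTRL range. The call was lost without MKO2 (adjusted p = 0.0533), MKO3 (0.121), MCTRL1 (0.0809), MCTRL5 (0.0822) or MVHCTRL2 (0.0561), and with library size in place of TMM (0.0607). Catsperb was at -0.64 ± 0.25 (adjusted p = 0.0646) and was called lower without MKO2 (-0.79, adjusted p = 0.0372) or without MVHCTRL3 (-0.77, adjusted p = 0.0243). It was also called lower in 2 of 6 alternatives that left out no CB library, with changes from -0.78 to -0.57 over the 6. Catsperd, with 93.3 ± 14.7 CPM in CTRL and 89.7 ± 17.4 CPM in cKO, Catsperg1 (239 ± 55.1 and 249 ± 56.9 CPM) and Catsperg2 (192 ± 45.7 and 172 ± 24.7 CPM) had log2 changes between -0.16 and 0.06, with SE of 0.19 to 0.23.

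In the deposited counts per transcript, 28 of the 43 transcripts that GENCODE vM21 lists for the 8 genes are present, and all 28 were tested. These values share reads between overlapping transcripts, so transcripts of a gene are not independent. In Spc 17 were called higher and 2 lower (16.1% and 12.5% of all 57631 transcripts tested), in RS 17 higher and 6 lower (38.9% and 36.0% of 57133) and in CB 4 higher and 7 lower (17.8% and 18.1% of 30623). The 17 in Spc and in RS were all 14 transcripts of Catsperg1 and the single transcripts of Catsperb, Catsperd and Catsperg2.

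Since SMG6 cuts NMD substrates, transcripts annotated as NMD substrates were set beside the coding ones, and 3 were in the table. For Catsper2, ENSMUST00000154604, with 3 exon junctions at least 50 bases after its stop codon, made up 31.3% to 32.1% of the counts of the gene in CTRL Spc and 33.2% to 33.3% in cKO Spc, and 30.8% to 32.1% in CTRL RS and 32.2% to 32.9% in cKO RS. The groups did not overlap in share, but by level the transcript was not called in Spc (0.13 ± 0.06, adjusted p = 0.17) or RS (-0.05 ± 0.07, adjusted p = 0.57). In CB it was called higher (0.94 ± 0.28, adjusted p = 0.025), as was the coding ENSMUST00000038073 (1.07 ± 0.31, adjusted p = 0.021), and its share was 38.7% in CTRL and 38.4% in cKO. The NMD transcript was called under 3 of 10 alternatives (0.54 to 1.24, adjusted p up to 0.352) and the coding one under 5 (0.65 to 1.40, adjusted p up to 0.249). Both calls were lost without MKO2, MKO3, MCTRL1 or MCTRL5, that of the NMD transcript also without MVHCTRL2 and with no filter on low counts, and both with library size in place of TMM. The 2 NMD transcripts of Catsperg1, ENSMUST00000163782 and ENSMUST00000164653, rose by 0.84 and 0.86 in RS, close to the 0.84 of the full-length coding ENSMUST00000169143. In these counts a read was split equally over overlapping transcripts. Near-equal changes of NMD and coding transcripts are therefore in part built in, for Catsper2 too. Whether the NMD transcripts changed apart from the coding ones cannot be told from these counts.

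Catsperg1 differed between transcripts in CB. The short coding ENSMUST00000069861 has 6 exons, starts at chr7:29211495, within the gene, and ends in an exon of 1659 bases (chr7:29196750-29198408, minus), of which 1310 bases lie in no exon of ENSMUST00000169143. Its annotated 3′ untranslated region is 1540 bases long. It made up 9.50%, 7.31%, 9.58% and 16.0% of the Catsperg1 counts in CTRL CB and 31.7%, 23.7% and 22.3% in cKO CB. Every cKO library was above every CTRL library, by 15.3 points on average, and MVHCTRL3 was the highest of the CTRL libraries.

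Its level was 31.0 ± 7.50 CPM in CTRL CB (n = 4) and 113 ± 32.2 CPM in cKO CB (n = 3), a log2 change of 1.88 ± 0.24 (edgeR, adjusted p = 7.2e-04), between 1.59 and 2.07 and called under all 10 alternatives. ENSMUST00000165907, a retained-intron transcript that starts at chr7:29211084 and shares 2 of its exons exactly with ENSMUST00000069861, rose by 1.61 ± 0.21 (adjusted p = 6.8e-04). The other 12 Catsperg1 transcripts were between 0.02 and 0.22 and not called. The start of ENSMUST00000165907 lies within the window of the second RefSeq start printed above and that of ENSMUST00000069861 upstream of it, and the full-length ENSMUST00000169143 starts at chr7:29213984. In Spc and RS the share of ENSMUST00000069861 was 5.47% to 7.05% in all 12 libraries, cKO and CTRL alike. This transcript was singled out after its values were seen.

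**Figure D4:**
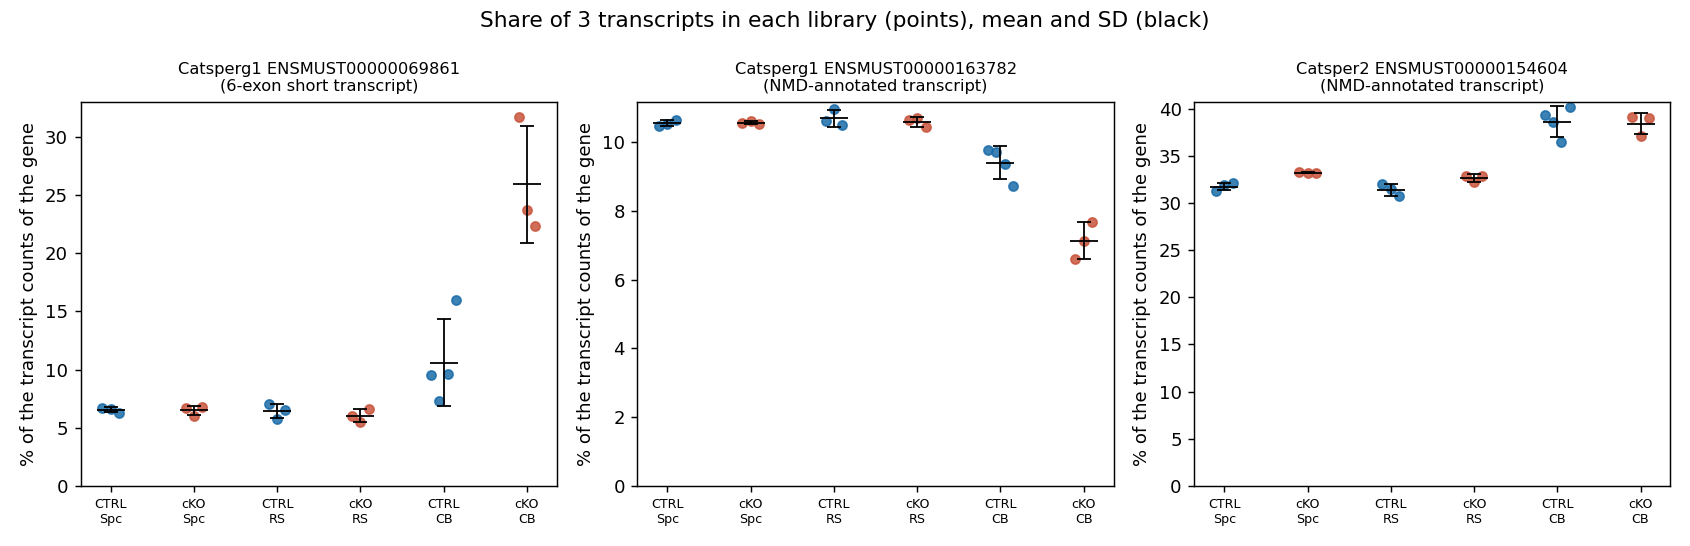
Percentage of the transcript counts of a gene assigned to 3 transcripts in each library (points), with the mean and SD of each group in black. The short Catsperg1 transcript ENSMUST00000069861 is at 22.3% to 31.7% in cKO CB and at 16.0% or less in the other groups, and the NMD-annotated transcript of Catsper2 lies between 30.8% and 40.3% throughout.

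Other genes of the complex were fixed as a list, of which 5 were in the tables. In RS 3 of the 5 were called lower and 1 higher in cKO, in Spc 2 lower and 2 higher, and in CB 2 lower and none higher. The shares of all genes were 32.8% lower and 40.2% higher in RS, 14.0% and 14.2% in Spc, and 18.9% and 16.6% in CB. Efcab9, which encodes the calcium sensor of the channel, had 216, 169 and 165 CPM in CTRL RS and 42.0, 60.0 and 50.9 CPM in cKO RS. The groups did not overlap (-1.85 ± 0.15, adjusted p = 1.8e-05), and Efcab9 was also lower in Spc (-1.08 ± 0.25, adjusted p = 0.020) and CB (-1.31 ± 0.24, adjusted p = 0.0015). Tex40, the older name of Catsperz, whose protein pairs with EFCAB9, fell by 0.69 in RS and by 0.22 in Spc on the log2 scale, and Slco6c1, an organic anion transporter found with the channel, fell by 0.43 in RS. Gm16432, listed for Catspere2, a further auxiliary chain, rose by 1.37 in RS and 0.74 in Spc, and Als2cr11, the older name of C2cd6, rose by 0.37 in Spc and was not called in RS. Values and counts of these genes and of the next list are given with TMM only. With library size the median RS change of all genes moved from 0.16 to 0.72, and Catsper4 moved from -0.43 to 0.13. Smaller RS falls, such as those of Slco6c1, Tex40 and Kcnu1 (below), may thus depend on the scaling.

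Of 12 other genes of ion transport and cAMP in sperm, 7 were called lower and 5 higher in cKO RS, 2 lower and 3 higher in Spc, and 6 lower and 2 higher in CB, beside the same shares of all genes. Atp1a4, the sodium pump subunit of sperm, fell by 3.15 in RS, from 1235 ± 140 to 139 ± 14.7 CPM. Lrrc52, the auxiliary subunit of the sperm potassium channel, fell by 2.31 and Kcnu1, its pore, by 0.61. Slc26a8, an anion transporter of sperm, rose by 0.72 in RS and 0.78 in Spc, and Slc9c1, the sperm sodium-proton exchanger, rose by 0.34 and 0.51.

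Over the 12 Spc and RS libraries, log2 CPM of the members fell into 2 patterns. Pearson's r was 0.93 to 0.99 between the 4 auxiliary genes and 0.64 to 0.96 between the 4 pore genes, and -0.92 to -0.26 between a pore and an auxiliary gene. These correlations follow the 4 groups and the shared scaling and are a description. Among 8919 other genes with a mean of at least 10 CPM, Catsperg2 was the nearest to Catsperd (r = 0.99) and Catsperd the nearest to Catsperg2, while the gene nearest to Catsper1 was Fam170b (0.997) and that nearest to Catsper3 was Pdzk1ip1 (0.997). The genes nearest to the mean of the 8 members were Art5, Cfap44, Tm9sf4, Nek10 and Pick1 (r = 0.92 to 0.93), but the members themselves had r of -0.07 to 0.60 with that mean.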

How the data were processed

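Libraries of Spc and RS (polyadenylated RNA) and of CB (total RNA, rRNA not removed) were sequenced by the authors. Per the labels and the methods of the study, reads were mapped to GRCm38 with STAR (2.7.1a in the submitters' processing notes). The deposited gene tables hold raw counts per gene and transposable element from TEtranscripts, counted by strand, and the deposited transcript tables hold estimated counts per Ensembl transcript from featureCounts (2.0.1), in which the authors split a read equally over overlapping transcripts; these expected counts were rounded to whole numbers here.

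Counts were tested in R 4.3.3 with edgeR 4.0.16 (quasi-likelihood test, TMM over genes and elements, at least 10 counts in at least 3 libraries, or 20 for transcripts), with p-values adjusted by Benjamini-Hochberg across every gene or transcript in the fit and calls at an adjusted p of at most 0.05. Spc, RS and CB were fitted apart, and the comparisons of RS with Spc came from 1 fit of 12 libraries. The script was tested on simulated data. The members and lists were chosen with earlier results of these data known. Genes named are the 8 members, Smg6, members of the 2 further lists and the 5 genes nearest to the mean of the members; the nearest gene of single members, the shares of pore genes and of transcripts, the promoter motifs and the marker lists were added. Replicate numbers are shared between groups, but the correlation of same-numbered deviations from the group means ran from -0.18 to 0.56, and the numbers were not taken to pair the libraries. CB columns could be tied to a group but not to a single sample. The authors used DESeq2, tried here as an alternative (1.42.0), beside library size scaling, no filter, summed transcript counts, genes only, other sets of libraries, a replicate block and leaving out each library; TMM without the marker genes was chosen after seeing the data. Depth limits CB most, where p-values and counts rest on the fewest reads.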

Additional observations from a re-analysis of the deposited data

Results flagged for a closer look

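The effect of genotype differed between RS and Spc for 2 of the 8 CatSper genes by the interaction term of the 12-library fit (edgeR), beside 21.1% of all genes called lower and 20.5% called higher. For Catsper4 the difference was -0.94 on the log2 scale (adjusted p = 0.0384), with a change of -0.43 in RS and 0.40 in Spc in the separate fits. For Catsper2 it was -0.29 (adjusted p = 0.0280), with -0.14 in RS and 0.04 in Spc, and it reversed to 0.34 with library size in place of TMM. Catsper4 was lost in 9 and Catsper2 in 7 of the 12 fits that left out 1 library. Catsper1 (-0.78) and Catsper3 (-0.86) were not called in the main fit, but were called in 2 and 1 of those 12 fits. With the replicate number as a block the genes called differed (below).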

How the results depend on the processing

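With library size in place of TMM, Catsper2 (0.41) and Catsper4 (0.13) reversed in RS, Catsperg1 (-0.079) in CB, Catsper2 (-0.11) in CTRL RS against CTRL Spc, and Catsper2 (0.34), Catsperb (0.57) and Catsperg1 (0.57) in the interaction, where the median of all genes went from -0.07 to 0.57 and Catsperb and Catsperg1 lay at that median under both scalings. The same scaling left 0 CatSper genes called higher in CB (main 1), gave 5 higher and 0 lower in the interaction (main 0 and 2), 3 transcripts lower in RS (main 6) and 2 higher in CB (main 4), and moved the share of calls that are higher among all genes in CB from 46.8% to 36.2% and in CTRL RS against CTRL Spc from 50.9% to 31.8%, in RS from 55.1% to 75.8% and in the interaction from 49.3% to 93.6%. In the interaction, 1 gene was called lower by DESeq2 and 1 with no filter, Catsperg1 was at 0.00068 by DESeq2 and Catsperg2 at -0.024 with genes only. The causes were not tested.

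Leaving out 1 library gave 0 to 2 genes called lower in Spc, 0 to 1 higher in CB and 0 to 2 lower in the interaction, and 0 to 2 transcripts lower in Spc, 3 to 7 lower in RS and 2 to 4 higher in CB. Changes near 0 reversed in some of these fits: in CB Catsperd ran from -0.17 to 0.073 and Catsperg1 from -0.061 to 0.25, and in the interaction Catsperb from -0.13 to 0.019, Catsperg1 from -0.16 to 0.023 and Catsperg2 from -0.050 to 0.13. Of all values of single genes, 631 kept direction and call, 35 lost the call, 15 gained it and 23 reversed.

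With the replicate number as a block, Catsper1 (-0.76, adjusted p = 0.0319) and Catsper3 (-0.82, adjusted p = 0.0278) were called in the interaction and Catsper2 was not (adjusted p = 0.0594), and 0 transcripts were called lower in Spc. The block changed no other call of a CatSper gene. For CB alone no block was fitted, since the numbers in its column headers match no sample title.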
